A study of Mus musculus with 7 samples.

Results

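The regions described here were accessible in the ectoderm of the mouse first pharyngeal arch and in sorted Sox2-positive cells of the postnatal incisor, and were absent from the strongest peaks of whole teeth. They were chosen by presence in peak lists. The 38000 peaks with the smallest p-values on chromosomes 1 to 19 were taken from each of 7 libraries, and peaks sharing 1 bp or more were merged. A region was kept if the 2 ectoderm libraries and the 2 Sox2-positive libraries each placed a peak in it and none of the 3 whole-tooth libraries did. This gave 408 of 77136 merged regions, or 0.529%, and 2.44% of the 16740 regions present in all 4 libraries of ectoderm and Sox2-positive cells. Membership was therefore read from the measured peaks, and the ranks, signals and p-values given below for the 4 chosen libraries are descriptions of that choice.

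The assay was ATAC-seq, in its Omni-ATAC version: a transposase inserts adapters into DNA that nucleosomes leave exposed, and the tagged fragments are sequenced. The ectoderm came from first pharyngeal arches of mouse embryos at embryonic day 11.5, was separated from mesenchyme with Dispase II and gave 2 libraries, called ectoderm replicates 1 and 2. The Sox2-positive cells, named dental epithelial stem cells by the labels, were sorted from the dissociated labial cervical loop of lower incisors at postnatal day 2 from Sox2-GFP mice, in which the endogenous Sox2 promoter drives GFP, and also gave 2 libraries. Whole teeth of postnatal day 2, namely lower incisor, lower first molar and upper first molar, were measured with a single library each, so nothing that rests on a single tooth has a replicate check. No genotype other than Sox2-GFP is given in the labels, and they do not say whether replicates came from separate animals or how many animals were pooled. Sorting by a Sox2 reporter made accessibility at Sox2 itself part of how those cells were obtained.

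The first pharyngeal arch forms the lower and much of the upper jaw, and its ectoderm gives rise to the dental epithelium. The mouse incisor grows throughout life, and its labial cervical loop keeps Sox2-expressing epithelial stem cells whose progeny become enamel-secreting ameloblasts. A whole tooth holds this epithelium together with mesenchyme, blood vessels, nerve and blood cells.

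Most of these regions were not closed to whole teeth when the full lists were read. Of the 408, 347 (85.0%, Wilson 95% interval 81.3 to 88.2) held a whole-tooth peak that the authors deposited but that ranked beyond 38000 in its list. In whole tissue, fewer cells with the open site and a less accessible site in each cell cannot be told apart. The remaining 61 regions (15%) held no deposited whole-tooth peak at any rank. Wilson intervals describe only the counting of regions, and regions are not replicates. The 408 are called shared regions below, and the 61 are called shared regions without a tooth peak.

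Sequences could be shown for promoters only, as no genome was given. Of the 396 shared regions compared with the promoters, 77 (19.4%) overlapped a promoter window of 300 bases around a transcription start. The same share over all merged regions is not given here. Within 1 kb of a start site lay 17.4% of the 396 and 14.3% of all merged regions. Shown here are the 5 genes of the tissue and pathway lists used below whose promoter lay in a shared region. Each sequence is the 250 bases before the start, 5′ to 3′ on the strand of the gene, from RefSeq on build GRCm38.p6. Capitals mark CpG dinucleotides, which are dense in promoters of the CpG-island kind. Sox2 (chr3:34649745-34649994, plus strand) encodes a stem cell transcription factor, and Krt18 (chr15:102027966-102028215, plus strand) a keratin of simple epithelia. Klk4 (chr7:43880910-43881159, plus strand) encodes a protease of enamel maturation. Kdr (chr5:75978456-75978705, minus strand) encodes a receptor for vascular endothelial growth factor, and Elavl4 (chr4:110351912-110352161, minus strand) a neuronal RNA-binding protein.
Sox2: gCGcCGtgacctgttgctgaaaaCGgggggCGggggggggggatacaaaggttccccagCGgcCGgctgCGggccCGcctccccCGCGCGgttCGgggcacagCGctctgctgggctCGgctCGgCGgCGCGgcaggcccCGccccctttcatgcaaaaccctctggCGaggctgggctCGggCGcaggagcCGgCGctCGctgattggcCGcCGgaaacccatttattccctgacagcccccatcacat
Krt18: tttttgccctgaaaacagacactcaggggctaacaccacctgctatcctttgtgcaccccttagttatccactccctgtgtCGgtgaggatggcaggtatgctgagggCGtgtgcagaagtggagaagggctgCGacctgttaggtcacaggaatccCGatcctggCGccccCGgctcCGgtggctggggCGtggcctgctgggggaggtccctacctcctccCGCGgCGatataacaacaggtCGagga
Klk4: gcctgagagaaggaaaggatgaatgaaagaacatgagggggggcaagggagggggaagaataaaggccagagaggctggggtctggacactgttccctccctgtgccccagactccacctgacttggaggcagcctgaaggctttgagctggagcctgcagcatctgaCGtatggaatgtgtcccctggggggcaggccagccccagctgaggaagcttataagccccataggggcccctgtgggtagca
Kdr: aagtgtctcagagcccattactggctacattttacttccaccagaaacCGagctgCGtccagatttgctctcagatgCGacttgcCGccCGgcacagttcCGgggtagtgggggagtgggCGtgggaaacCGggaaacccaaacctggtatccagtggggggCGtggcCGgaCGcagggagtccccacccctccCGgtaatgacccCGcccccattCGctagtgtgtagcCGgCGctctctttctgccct
Elavl4: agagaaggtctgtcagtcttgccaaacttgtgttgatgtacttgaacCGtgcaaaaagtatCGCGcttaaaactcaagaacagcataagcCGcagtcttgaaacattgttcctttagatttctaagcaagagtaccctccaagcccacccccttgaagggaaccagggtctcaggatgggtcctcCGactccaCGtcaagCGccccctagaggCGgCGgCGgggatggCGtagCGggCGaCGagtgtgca
The Sox2 stretch held 27 CpG in its 250 bases, Kdr 16, Elavl4 14 and Krt18 12, whereas Klk4 held 1. All but the Klk4 stretch, of which 216 of 250 bases were covered, lay wholly under the shared region. The letters GGGNGTG, recognised by Krüppel-like and SP factors, occurred 3 times each in the Krt18 and Kdr stretches and once in that of Elavl4 on either strand. They did not occur in the Sox2 and Klk4 stretches.

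The libraries differed in list length, which set how deep the 38000 peaks reached. They took up 47.0% of the chromosome 1 to 19 peaks of ectoderm replicate 1 and 76.4% of replicate 2, 90.8% and 99.1% in Sox2-positive replicates 1 and 2, and 55.2% to 61.2% in the teeth. The −log10 p of the last peak used ran from 2.94 in Sox2-positive replicate 2 to 4.79 in ectoderm replicate 1. Of 40 genes for epithelial structure and junctions, 77.5% had a used gene-end peak (within 1 kb) in each ectoderm library, 70.0% and 75% in the Sox2-positive libraries, 42.5% in incisor and 65% and 62.5% in lower and upper molar. Of 28 mesenchyme and odontoblast genes, 35.7% and 42.9% had one in ectoderm, 60.7% and 67.9% in the sorted cells, 67.9% in the incisor library and 46.4% in either molar. Open chromatin at mesenchymal genes was thus no rarer in the sorted cells than in the molars. Its part in the results below was not tested.

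Most regions open in both ectoderm and Sox2-positive cells were open everywhere. Of the 16740 present in these 4 libraries, 14786 (88.3%) had a peak in all 7. Both molars but not the incisor joined the 4 libraries in 736 regions, the incisor alone in 244, the lower molar alone in 81 and the upper molar alone in 156. Presence in both ectoderm libraries and nowhere else was found for 9896 regions, and presence in both Sox2-positive libraries and nowhere else for 1141. Both of those sets were larger than the 408 shared regions.

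Membership hung most on Sox2-positive replicate 2. A further 828 regions had peaks of both ectoderm libraries and Sox2-positive replicate 1 and of no other library, against 255 that lacked replicate 1 in its place. Regions that lacked ectoderm replicate 1 numbered 81, and those that lacked ectoderm replicate 2 numbered 41. Of the 81, 79 held a deposited ectoderm replicate 1 peak below the used part of the list, with a best rank of 38024. Of the 828, 14 held a deposited replicate 2 peak, the best at rank 38023, in a list of which 99.1% was already used. Just inside the threshold, the region near Batf3 ranked 37995 in Sox2-positive replicate 2 and the region near Nxnl1 ranked 37983 in ectoderm replicate 1. The choice of 38000 mattered to which regions were kept: the top 30000 and 20000 peaks gave 328 and 191 regions, of which 136 and 18 overlapped the 408. Without Sox2-positive replicate 1 or 2 there were 664 and 1236.

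Shared regions were of middling rank in the ectoderm and of low rank in the sorted cells. Their median rank was 21631 in ectoderm replicate 1 (range 884 to 37983) and 20926.5 in replicate 2 (1558 to 37614). In Sox2-positive replicates 1 and 2 it was 25329.5 (5857 to 37961) and 29649 (7743 to 37995). Regions open in all 7 libraries had median ranks of 8314.5 to 9343 in the same lists. Regions of ectoderm alone had medians of 22886.5 and 24492.5 in ectoderm replicates 1 and 2. Those of Sox2-positive cells alone had 26572 and 29165 in Sox2-positive replicates 1 and 2. Such ranks were therefore not particular to shared regions. Among the first 10000 peaks of a list there were 61 and 38 shared regions in the ectoderm replicates, and 11 and 1 in the Sox2-positive replicates. The weakest of the 4 ranks belonged to Sox2-positive replicate 2 in 214 regions (52.5%).

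**Figure D1:**
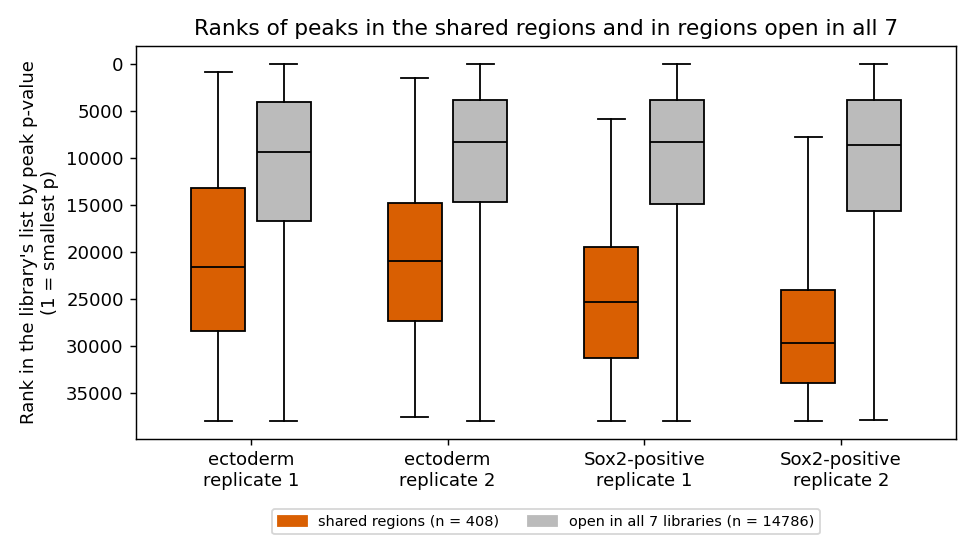
Rank of the peak in each region (vertical axis, rank 1 at the top) in the 4 libraries for the 408 shared regions (orange) and the 14786 regions with a peak in all 7 libraries (grey). Boxes give the quartiles with the median line and whiskers the full range; shared regions sit lower in each list, with medians from 20926.5 to 29649 against 8314.5 to 9343.

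The deposited signal of shared regions had medians of 1533 in ectoderm replicate 1 (440 to 5863), 1016 in replicate 2 (218 to 5401), 456 in Sox2-positive replicate 1 (202 to 1452) and 333 in replicate 2 (202 to 1273). Signal was not normalized between libraries, so the difference between tissues is not a difference in accessibility. Compared as ranks, both ectoderm ranks were better than both Sox2-positive ranks in 200 shared regions (49.0%), and the reverse held in 40. In regions open in all 7 libraries both ectoderm ranks were better in 27.0%. Each of the 4 libraries placed exactly 1 peak in 377 of the 408 regions.

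Summits of the peaks, the positions of highest signal, were close together. The median distance was 17 bp between ectoderm replicates and 40.5 bp between Sox2-positive replicates. Across the tissues the 4 pairs of libraries had medians of 42.5 to 52.5 bp, about the distance between the Sox2-positive replicates. Summits lay within 100 bp in 83.6% of shared regions for the ectoderm pair, 74.8% for the Sox2-positive pair and 66.2% to 69.9% across tissues. In regions open in all 7 libraries the medians were 9, 20 and 18 to 28 bp.

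The whole-tooth lists continued past rank 38000, and what they held there graded the 408 regions. All 3 teeth had a lower-ranked peak in 208 regions (51.0%), 2 teeth in 94 and 1 tooth in 45. The incisor had one in 254 regions (62.3%, interval 57.5 to 66.8), the lower molar in 302 (74.0%) and the upper molar in 301 (73.8%). Both molars without the incisor had one in 64 regions, against 16 for the incisor without a molar. The best whole-tooth rank ran from 38008 to 65524 with a median of 44464, and it lay within 2000 ranks of the threshold in 64 regions and within 10000 in 236. Among all 26322 merged regions with no used whole-tooth peak, 41.3% held a lower-ranked one. That share was 29.1% (2883 of 9896) for regions of the ectoderm alone and 72.7% (829 of 1141) for regions of Sox2-positive cells alone.

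**Figure D2:**
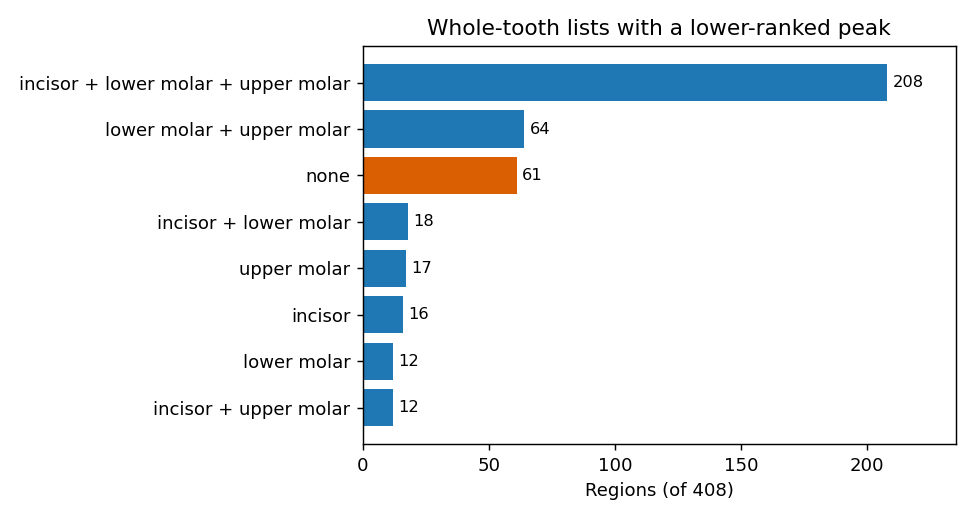
Number of shared regions (horizontal axis, of 408) by which of the 3 whole-tooth lists held a peak in the region at a rank beyond 38000. The largest class is all 3 teeth with 208 regions, and 61 regions (orange) had no deposited whole-tooth peak.

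Position in the genome was not used to choose the regions. A gene end, meaning the first or last base of a protein-coding gene, lay within 1 kb of the centre of 89 shared regions (21.8%, interval 18.1 to 26.1), against 16.8% of all merged regions. Regions open in all 7 libraries reached 58.6%, and regions of ectoderm alone and of Sox2-positive cells alone reached 7.30% and 5.52%. The share was higher in shared regions than in those of ectoderm alone on 18 of 19 chromosomes, and higher than in those of Sox2-positive cells alone on 17. It exceeded the share over all regions on 10 of 19. Ranking peaks by signal gave 16.7% (interval 13.5 to 20.6) of shared regions against 17.2% of all merged regions, so the excess over all regions was no longer present. The top 20000 peaks gave 34.6% against 26.6%, and all deposited peaks gave 1.05% against 11.8%. Start sites alone gave 17.4% of 396 shared regions outside chromosome 18, and 14.3% of all regions. Inside a protein-coding gene lay 233 shared regions (57.1%, interval 52.3 to 61.8), close to the 58.2% of all merged regions.

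Closeness to genes went with the whole-tooth peaks. All 89 shared regions at a gene end held a lower-ranked whole-tooth peak, and 65 of them (73.0%) held one in all 3 teeth, against 143 of the 319 shared regions further away (44.8%). Regions with a lower-ranked whole-tooth peak lay at a gene end in 25.6% (interval 21.3 to 30.5). None of the 61 without one did, which allows a share of up to 5.92%. The median distance to a gene end was 7.90 kb with a whole-tooth peak and 39.4 kb without, and 8.65% and 26.2% lay more than 100 kb from a gene end. In regions of ectoderm alone the gene-end share was 12.4% with and 5.20% without a lower-ranked whole-tooth peak, and in those of Sox2-positive cells alone it was 6.39% and 3.21%. This division was chosen after the values were seen. Any overlap of a whole-tooth peak with the region was counted, and a wider region can hold more. Shared regions at gene ends were wider (median 1216 bp against 915 bp), as were those with a whole-tooth peak (994 bp against 851 bp). The part of width was not tested. When Sox2-positive replicate 2 was not required, the share at a gene end was 8.18% of 220 regions without a tooth peak.

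**Figure D3:**
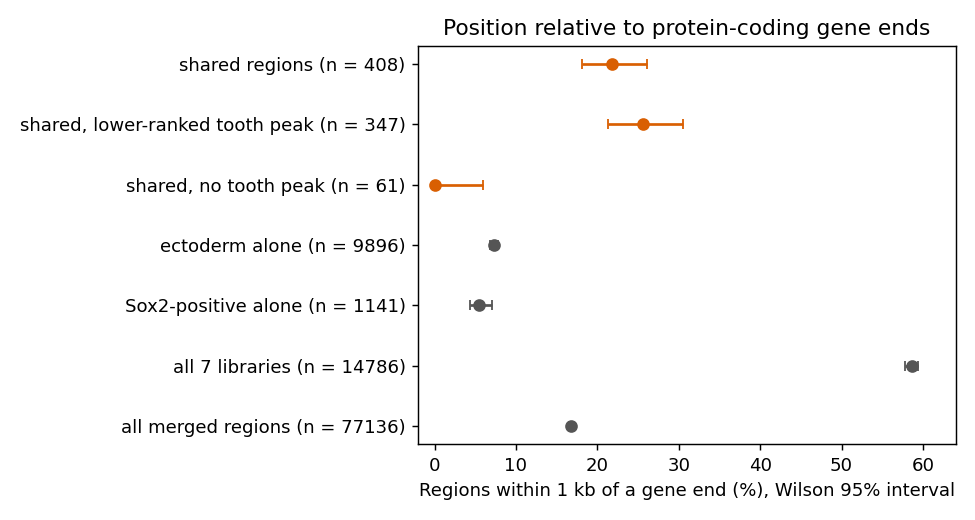
Share of regions whose centre lies within 1 kb of an end of a protein-coding gene (horizontal axis, percent, with Wilson 95% intervals) for the shared regions (orange) and for comparison sets (grey). Shared regions reach 21.8%, between the 58.6% of regions open in all 7 libraries and the 7.30% and 5.52% of regions of 1 tissue, and 0 of the 61 without a tooth peak lie there.

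Shared regions had a median width of 963 bp (quartiles 739 and 1304), against 1420 bp for regions open in all 7 libraries, 691.5 bp for ectoderm alone and 551 bp for Sox2-positive cells alone. A merged region can widen with each list that contributes a peak, so these widths follow the number of lists as well as the peaks. The libraries' own peaks in shared regions had median widths of 826 and 811 bp in ectoderm and 544 and 473 bp in Sox2-positive cells. Regions at gene ends were wider (median 1216 bp) than those further away (915 bp). The widest were at Nol4l (4808 bp), Crabp2 (4087 bp), Ulbp1 (3246 bp), Pdlim2 (2849 bp) and Shc2 (2674 bp). Crabp2 encodes a cellular retinoic acid-binding protein, and its region lay 0.019 kb from the gene's end.

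Neighbourhoods of shared regions were counted beside those of the comparison sets. Within 100 kb shared regions had a median of 12 other merged regions, against 12 for regions open in all 7 libraries, 11 for Sox2-positive cells alone and 9 for ectoderm alone. A region open in all 7 libraries lay that close in 79.9% of shared regions, and in 85.7%, 75.1% and 67.1% of these sets. A region of ectoderm alone lay that close in 72.5%, against 68.0%, 64.6% and 67.7%. No region with a used whole-tooth peak lay within 100 kb of 20 shared regions (4.90%), against 1.83%, 3.24% and 8.57%. Of these 20, 7 were among the 61 without a tooth peak (11.5%). Another shared region lay within 100 kb of 33 of the 408. A shared region lay that close to 1142 of the 14786 regions open in all 7 libraries. The same held for 97 of 1141 regions of Sox2-positive cells alone and 594 of 9896 of ectoderm alone.

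Each region was assigned to the nearest gene end within 100 kb, which names a neighbour and not a target. Of the 408, 362 were assigned, to 357 genes, and the same was possible for 64992 merged regions, so that 0.557% of assigned regions were shared. In 10 lists of genes for dental and other tissues there were 14 shared regions among 1855 assigned regions (0.755%). No list held more than 3, and none of the 61 regions without a tooth peak fell to a gene of any list. The interval of each list included 0.557% except that of the endothelial list, which rests on 2 regions, so nothing particular to a list is read from these counts. Without Sox2-positive replicate 1 or 2 the lists held 27 and 35 regions. With the top 30000 and 20000 peaks they held 10 and 6. In both settings the enamel list, the mesenchyme and odontoblast list and the list of signalling ligands and inhibitors held 0, as did Krt18. The list of signalling receptors and effectors held 1 and 0. The neural list held 2 and 1, and the oral and dental epithelial regulators 5 and 2.

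Among 35 oral and dental epithelial regulators, 3 of 338 assigned regions were shared (0.888%, interval 0.302 to 2.58). Those at Sox2 and Foxi3 are described here. The Sox2 region (chr3:34649197-34651363) covered the promoter shown above and the first part of the gene. Its signal was 2444 and 2733 in ectoderm replicates 1 and 2, 512 and 419 in Sox2-positive replicates 1 and 2, and 231, 312 and 245 in incisor, lower and upper molar. Its ranks were 13697 and 13601 in ectoderm and 13893 and 22947 in Sox2-positive cells, while the teeth placed it at 44499, 43054 and 52129. The locus had 6 other regions within 100 kb, none of them open in all 7 libraries and 1 with a used whole-tooth peak.

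Foxi3 encodes a forkhead factor of ectodermal placodes that acts in tooth development, and its region (chr6:71020957-71022036) lay 60.4 kb away. Signals there were 2121 and 1054 in ectoderm, 785 and 724 in Sox2-positive cells, and 347, 403 and 220 in incisor, lower and upper molar. The 4 chosen libraries ranked this peak between 13709 and 19913, and the teeth ranked it 55847, 52075 and 65139.

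Genes of epithelial structure had 3 shared regions among 230 (1.30%, interval 0.445 to 3.76), of which those at Krt18 and Prss8 are described here. The Krt18 region (chr15:102027948-102029223) had 1463 and 1013 in ectoderm, 437 and 284 in Sox2-positive cells, no incisor peak, and 332 and 373 in the molars. Prss8 encodes prostasin, a membrane-anchored serine protease of epithelia. Its region (chr7:127925132-127926083, inside the neighbouring gene Kat8) had 1788 and 680, then 378 and 223, no incisor peak, and 290 and 250 in the molars.

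The Notch pathway, in which membrane-bound ligands activate receptors on neighbouring cells, had a shared region at 1 ligand and 1 receptor. These were the single shared regions of the list of signalling ligands and inhibitors (1 of 297, 0.337%) and of the list of receptors and effectors (1 of 482, 0.207%). The region inside the ligand gene Jag2 (chr12:112923954-112925093) had 1953 and 1130 in ectoderm, 708 and 421 in Sox2-positive cells, no incisor peak, and 304 and 380 in the molars. The region inside the receptor gene Notch2 (chr3:98035898-98036500) had 943 and 532, then 279 and 210, and 224 in the upper molar with no peak in the other teeth. Both list shares were below 0.557%, so nothing particular to the Notch pathway is read from these regions. With the top 30000 and 20000 peaks the list of ligands and inhibitors held 0.

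Of the enamel genes, Klk4 had the single shared region (1 of 103). That region (chr7:43880944-43881422) spanned 479 bp at the gene's start, with signals of 1228 and 1021 in ectoderm, 321 and 284 in Sox2-positive cells, and 209 in the upper molar at rank 64229. Incisor and lower molar had no deposited peak in it. No enamel has formed in the jaw at embryonic day 11.5.

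Genes of other tissues also appeared. The mesenchyme and odontoblast list had 2 shared regions of 183 (1.09%), at Msx2 and Sp7. Msx2 encodes a homeobox factor that is also active in dental epithelium, and the region (chr13:53553213-53554606) lay 81.1 kb from it. Its signals were 2502 and 2221 in ectoderm, 253 and 319 in the sorted cells, with 315 in incisor and 230 in lower molar. Sp7 encodes osterix, a factor of bone and odontoblast differentiation. Its region (chr15:102358037-102359301) had 775 and 948 in ectoderm, 264 and 435 in the sorted cells, with 1120 in incisor and 264 in lower molar. The incisor signal there was the highest listed for the region, although its rank of 41751 left it out of the used peaks.

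Endothelial genes had 2 shared regions of 77 (2.60%, interval 0.715 to 8.98). With the top 30000 and 20000 peaks they had 0 and 1. The region at Kdr (chr5:75977606-75978870) had 1992 and 1642 in ectoderm, 372 and 425 in Sox2-positive cells, and 518, 667 and 576 in incisor, lower and upper molar. Its lower molar rank of 38201 was just past the threshold. The second region was assigned to Eng, a co-receptor of the TGF-β family, and lay inside the neighbouring gene Fpgs 6.99 kb away. The neural list had 1 region of 71, at Elavl4 (chr4:110351032-110352445), with 4094 and 3355 in ectoderm, 615 and 575 in Sox2-positive cells, and 432, 436 and 638 in incisor, lower and upper molar. None of the 72 regions of blood and immune genes and none of the 18 of muscle genes were shared. Of 14 endothelial genes, 35.7% had a used gene-end peak in each ectoderm library and 28.6% and 42.9% in the Sox2-positive libraries, against 14.3% in incisor and upper molar and 21.4% in lower molar. Of 17 neural genes with a value, 52.9% and 47.1% had one in ectoderm, 41.2% in each Sox2-positive library, and 29.4%, 35.3% and 41.2% in incisor, lower and upper molar. Their part in these regions was not tested.

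**Figure D4:**
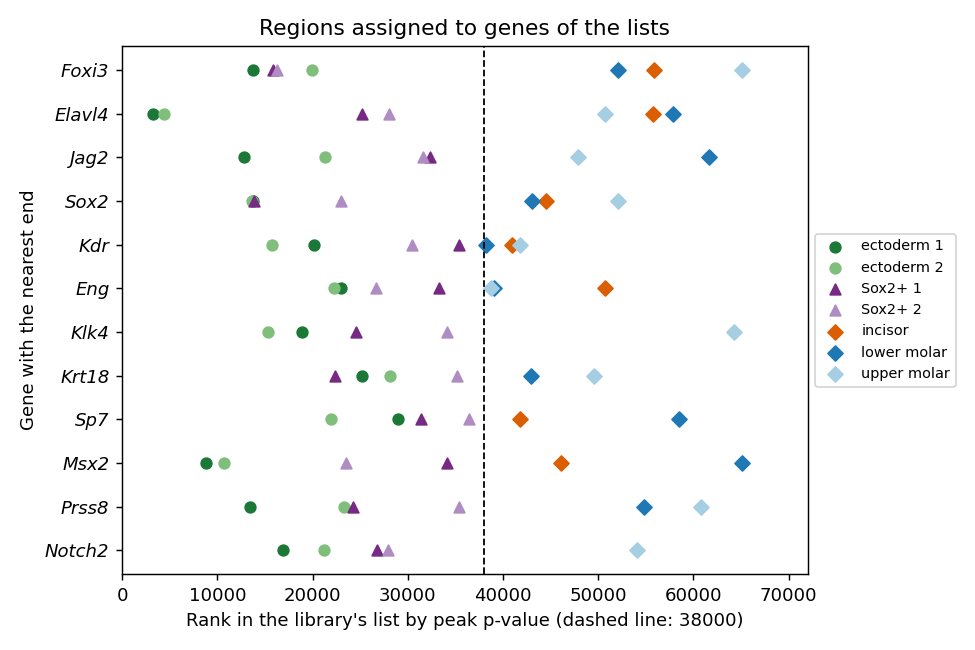
Rank of the peak (horizontal axis) in each of the 7 libraries for 12 of the 14 shared regions assigned to genes of the lists, with 38000 as a dashed line. Circles are ectoderm, triangles Sox2-positive cells and diamonds whole teeth; a missing diamond means no deposited peak. By the rule of choice all circles and triangles lie left of the line, and the teeth lie between 38201 at Kdr and 65139 at Foxi3.

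The 61 regions without any tooth peak lay away from gene ends, with 28 (45.9%) inside a protein-coding gene and 33 between genes. The 15 with the best signal ranks in the 4 libraries are described next. Asap1, Rpn2, Sgcz, Cnn3, Lrig1, Tbc1d16 and Tenm4 contained their region, while the other 8 regions lay 2.30 kb (Trim7) to 131 kb (Isl1) from the gene named. The region nearest Gm12447 (chr4:46256377-46257245) had signals of 3300 and 1598 in ectoderm and 867 and 769 in Sox2-positive cells. The region near Egfem1 (chr3:29800541-29801709) had 3715 and 2849, then 736 and 594. It had 1 other region within 100 kb, which belonged to ectoderm alone.

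Isl1, Lrig1 and Apc were picked from the 15 nearest genes for known roles in epithelia or in signalling. None of the 61 regions was assigned to a gene of the lists. Isl1 encodes a LIM-homeodomain factor of the embryonic jaw ectoderm and incisor epithelium. The region nearest it (chr13:116166385-116167407) lay 131 kb away, beyond the 100 kb limit of assignment. It had 1864 and 1233 in ectoderm and 1099 and 422 in Sox2-positive cells. Within 100 kb of the region there were 3 other regions, none with a used whole-tooth peak. Lrig1, an inhibitor of epidermal growth factor receptor signalling that marks epithelial stem cells, held an intragenic region (chr6:94653592-94654475) with 1346 and 670, then 503 and 406. Apc encodes a member of the complex that degrades β-catenin in the Wnt pathway. The region nearest it (chr18:34132450-34133273) lay 87.4 kb away and had 1749 and 1044, then 727 and 387.

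In 14 of the 15 regions ectoderm replicate 1 had the highest signal, which was not normalized between libraries. That library also had the highest median signal over all 408 shared regions, 1533 against 1016, 456 and 333. The exception among the 15 was the region deep in Sgcz, which encodes ζ-sarcoglycan (chr8:38089713-38090627). There Sox2-positive replicate 1 had 1452, ectoderm 1360 and 1038, and Sox2-positive replicate 2 had 470. That region lay 572 kb from a gene end and had no other merged region within 100 kb. By rank it stood at 23667 and 16482 in ectoderm and at 5857 and 23699 in the sorted cells, whose replicates spanned both ectoderm values.

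The other 9 regions of the 15 had ectoderm signals from 726 to 3367 and Sox2-positive signals from 374 to 983. At Asap1, an Arf GTPase-activating protein, signals were 3334 and 2085 in ectoderm and 983 and 494 in Sox2-positive cells (chr15:64122200-64123650). At Tnp1, a sperm chromatin protein, they were 3367 and 2497, then 496 and 622 (chr1:72960009-72960879). At Kazald1 they were 2734 and 1634, then 917 and 433 (chr19:45113713-45114997). Tenm4, which encodes a teneurin cell-adhesion protein, had 2053 and 1362, then 579 and 374 (chr7:96753857-96755122). Across Trim7, Rpn2, Tmem150c, Cnn3 and Tbc1d16, signals ran from 726 to 1774 in ectoderm and from 393 to 980 in Sox2-positive cells.

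**Figure D5:**
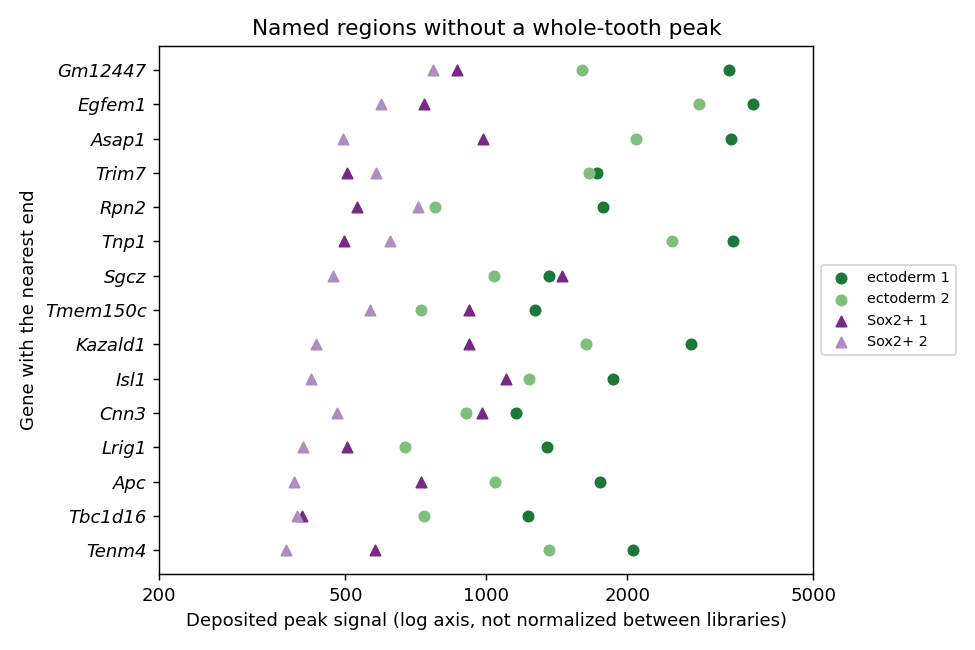
Deposited peak signal (horizontal log axis, not normalized between libraries) of the 15 named shared regions without a whole-tooth peak, by nearest gene. Circles are ectoderm and triangles Sox2-positive replicates; at Sgcz the Sox2-positive replicates stand at 1452 and 470, on either side of ectoderm.

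There were 5 genes nearest to 2 shared regions each, and no gene to 3. These pairs depended on the peaks taken: with the top 20000 peaks none of the 5 genes had a region, and with 30000 Ikzf2 had 2, Rgs8, Fam110a and Rpn2 had 1 and Cmip had 0. Ranked by signal, Fam110a had 2, Ikzf2, Rgs8 and Rpn2 had 1 and Cmip had 0, and with 50% cover none had 2. Without Sox2-positive replicate 2, Cmip and Rgs8 had 3 each. Ikzf2, which encodes the zinc-finger factor Helios, had regions at chr1:69433501-69434796 and chr1:69728729-69730027, 97.1 and 42.0 kb away. Both lacked an incisor peak and had lower-ranked peaks in both molars. Rgs8, a regulator of G-protein signalling, had regions at chr1:153664840-153665766 and chr1:153704150-153704700. Cmip had chr8:117402958-117404294 and chr8:117469913-117471018, and Fam110a had chr2:151972467-151974558 and chr2:151977596-151978362. Both Rpn2 regions (chr2:157315899-157316863 and chr2:157319906-157320688), inside a gene for a subunit of the N-glycosylation complex, were without a tooth peak. The second was weak, with 809 and 766 in ectoderm and 325 and 202 in Sox2-positive cells.

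The strongest shared regions at single genes included Ttc7b, where ranks were 3000, 9655, 8176 and 7743 in ectoderm replicates 1 and 2 and Sox2-positive replicates 1 and 2. This was the 1 shared region among the first 10000 peaks of all 4 lists. Its region (chr12:100281939-100282960) had signals of 2838 and 1813 in ectoderm, 1306 and 1255 in the sorted cells, and 253 and 249 in incisor and lower molar. Cacna2d2, a calcium channel subunit gene, followed with 2336 and 1936, then 1011 and 880 (chr9:107520931-107522971). Among gene-end regions, Lrrc3b had 4399 and 3184 in ectoderm, 872 and 532 in Sox2-positive cells and no other merged region within 100 kb. The 10 gene-end regions with the best signal ranks lay at Chrm4, Rfxap, Actb, Elavl4, Zfp729b, Fbxl8, Tmem221, Lrrc3b, Mfsd4b1 and Zfp872. Rfxap and Actb had lower-ranked peaks in 2 teeth and the other 8 in all 3. Near Actb, the β-actin gene (chr5:142901214-142903599), signals were 3899 and 2683, then 701 and 804, with 503 in incisor and 339 in lower molar. The centre of that region lay 0.709 kb outside the gene, and no promoter window of Actb overlapped the region. The region near the muscarinic receptor gene Chrm4 (chr2:91921032-91922804) had 2048 and 1684, then 808 and 825. Its incisor signal of 859 was above both Sox2-positive values, but signal was not normalized between libraries. By rank the incisor peak stood at 40856, behind 27188 and 29153 in Sox2-positive replicates 1 and 2.

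Promoters inside shared regions were intermediate in their number of CpG. The 77 regions overlapped 99 windows of 84 genes, each window holding 250 bases before and 50 after a start, out of 31396 windows. The median number of CpG in a window was 17, against 23 in the 11485 windows under regions open in all 7 libraries, 10 in the 704 under regions of ectoderm alone and 7 over all windows. Windows with 10 or more CpG made up 74.7%, 89.8%, 53.6% and 44.0% of these sets. The median share of G and C was 62.0%, 62.7%, 56.3% and 53.0%, so in this measure shared regions were close to those open in all 7 libraries. No shared region without a tooth peak overlapped a window.

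Short sequence matches were counted on both strands for 19 motifs, as a description of these letters. The ETS letters CCGGAAG occurred in 8.08% of the 99 windows (interval 4.15 to 15.1), in 19.3% of windows under regions open in all 7 libraries and in 9.0% of all windows. The E-box CAGCTG, bound by bHLH factors, occurred in 23.2% (16 to 32.5), 14.4% and 16.3%. The Runt letters TGTGGT occurred in 17.2% (11 to 25.8), 11.2% and 16.7%, and the KLF and SP letters GGGNGTG in 40.4% (31.3 to 50.3), 37.4% and 29.0%. The AP-2 letters GCCNNNGGC occurred in 24.2% (16.9 to 33.5), 27.1% and 16.7%. The SOX letters ACAATG occurred in 4.04% (1.58 to 9.93), 6.15% and 12.2%. The AP-1 letters TGANTCA occurred in 8.08% (4.15 to 15.1), 3.8% and 7.84%. A p63 pair of half-sites with up to 2 mismatches was found in 1 window. In windows under regions of ectoderm alone the ETS, E-box, Runt and KLF letters occurred in 3.69%, 17.6%, 11.6% and 31.1%. The AP-2, SOX and AP-1 letters occurred there in 20.6%, 10.4% and 6.39%. Not all 19 motifs are given. The TEAD letters GGAATG occurred in 9.09% of the 99 windows (4.86 to 16.4), 11.2% under regions open in all 7 libraries and 14.6% of all windows. The LEF/TCF letters CTTTGAA occurred in 0% (0 to 3.74), 3.14% and 5.09%. Windows of 1 gene overlap one another, so they are not independent, and CpG content moved with the set. Its part in these shares was not tested.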

How the data were processed

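ATAC-seq was done on 7 mouse libraries in 5 groups, taken from the sample titles. Reads were handled with FastQC, Trimmomatic, Bowtie2, deepTools and Genrich on build mm10, per the submitters' processing notes; versions, options and read depth are not given in the sources used here. The deposited files are 1 peak list per library, with the authors' signal (in the standard output of Genrich, an area under the significance curve), −log10 p and summit position for each peak. The deposited −log10 p took 238 to 933 distinct values per list, so ties were broken by signal. From these, peaks were ranked within each list, merged and annotated with Python 3.11.15, pandas 2.3.3 and numpy 2.4.6. Genes (21900 protein-coding), start sites and promoter windows came from RefSeq, GRCm38.p6. Promoters of chromosome 18 were not used here. A region's distance was measured from its centre to either end of a gene. The merging was tested on simulated lists of well-separated regions whose peaks overlapped by design, where 200 of 200 planted regions were found. Dense peaks that chain together were not simulated, so the test does not cover them.

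The shared regions and the gene lists were chosen with earlier results of these data known. Regions named are the 15 without a tooth peak and with the best worst rank by signal, 15 genes ordered by number of regions and then by signal rank (5 with 2 regions, the other 10 with 1), up to 5 per list, the 10 best at gene ends and the 5 widest. Of the regions in the lists, 12 are described and the others are not reported here. No p-values were computed, because regions are not replicates. The alternatives took 20000, 30000 or all peaks, ranked by signal, required 50% cover, used summit windows of 200 bp, kept chromosome X, left out replicates, or changed the gene windows.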

Additional observations from a re-analysis of the deposited data

Results flagged for a closer look

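Chromosome X was outside the choice of regions. When its peaks were added to the ranking, 5 of 1156 merged regions on it carried a used peak of each ectoderm and each Sox2-positive library and no used whole-tooth peak. They lay nearest to Fam122b (0.422 kb from a gene end), Gabre (0.077 kb), Gprasp2 (0.207 kb), Klf8 (39.0 kb) and Pabpc5 (74.4 kb). They are shown because these peaks entered none of the comparisons above. With chromosome X left out, 408 of 77136 merged regions (0.529%) met the same rule. No excess on chromosome X is read from these 5 regions.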

How the results depend on the processing

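The number of shared regions, 408, became 191 with the top 20000 peaks per library, 95 with all deposited peaks, 201 when peaks had to cover 50% of a region and 61 when no whole-tooth peak was allowed at any rank. With 30000 peaks it was 328, of which 136 overlapped the 408, so the identity of the regions moved more than their number. Ranking by signal gave 418, of which 232 overlapped. Without 1 replicate it ran from 456 to 1236, the highest without Sox2-positive replicate 2. The gene-end share, 21.8%, was 34.6% with 20000 peaks, 1.05% with all peaks, 0 with no tooth peak at any rank, 16.7% by signal (all merged regions 17.2%, an addition made after seeing the data), 15.9% and 29.4% with windows of 500 bp and 2.5 kb, and 19.3% to 23.4% without 1 replicate. The share inside genes, 57.1%, was 65.4%, 48.4% and 45.9% with 20000 peaks, all peaks and no tooth peak, and 57.2% to 58.6% without 1 replicate. The median width, 963 bp, was 1204, 840, 851, 827, 872.5 and 261 bp with 20000 peaks, all peaks, no tooth peak, 50% cover, ranking by signal and summit windows, and 846 to 961.5 bp without 1 replicate. The share with a lower-ranked whole-tooth peak, 85.0%, was 99.0% and 93.6% with 20000 and 30000 peaks and 89.6% with 50% cover, and 82.2% to 87.1% without 1 replicate. Regions in the gene lists, 14, numbered 6, 2, 0 and 5 with 20000 peaks, all peaks, no tooth peak and 50% cover, and 15 to 35 without 1 replicate.

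Results on the 61 regions without a tooth peak were added after seeing the data. Their number was 2 and 21 with 20000 and 30000 peaks, 21 with 50% cover, and 63 to 220 without 1 replicate. Their gene-end share, 0, was 0 to 8.18% without 1 replicate. For regions with a lower-ranked tooth peak the share, 25.6%, was 34.9% with 20000 peaks, 20.3% by signal, 18.7% and 33.7% with windows of 500 bp and 2.5 kb, and 21.7% to 26.6% without 1 replicate. Of 260 values for single genes and lists over 13 alternatives, 153 stayed, including 26 at 0 throughout for blood and muscle genes, and 107 moved. The cause of these shifts was not tested. No paired analysis was possible because the labels tie no ectoderm replicate to a Sox2-positive replicate, and no test was run. The motif search in 200 bp around summits was not run, as no genome was given. Read depth is unknown, so a missing peak cannot be told apart from a shallow library.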
